A study of Homo sapiens with 36 samples.

Results

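Overexpression of the isoleucine tRNA with anticodon UAU was compared with CRISPR interference (CRISPRi) against the isoleucine tRNA with anticodon GAU, in total RNA of MDA-MB-231 cells. This established human line comes from a breast cancer that lacks hormone receptors and HER2 amplification. The members are the 6 total RNA libraries of these 2 lines, 3 each, chosen by their labels out of 36 libraries in the series. The UAU line carried CRISPRi against eGFP, a target the human genome lacks, together with the tRNA-Ile-UAU overexpression construct. The GAUi line carried CRISPRi against tRNA-Ile-GAU together with the control overexpression construct. The lines therefore differ in both constructs at once, and the comparison is between 2 altered lines, not between an altered line and a control. Total RNA of 2 further lines was used for reference, 3 libraries each: a control line with CRISPRi against eGFP and the control construct, and a line here called isoswitch, with CRISPRi against tRNA-Ile-GAU and the tRNA-Ile-UAU construct. Every culture had been exposed to 100 ug/mL cycloheximide, which halts translating ribosomes, for 5 min before freezing. The same 4 lines were also measured in a low polysome fraction (the 80S and first polysome peak) and a high one (more than 2 ribosomes). The labels name the source a xenograft cell line, and do not state whether a line is a clone or a pool. They also do not say that replicates come from different cultures, and the p-values then measure only the spread between these samples, which may be technical.

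Human cells decode the isoleucine codons with several tRNAs. The GAU anticodon reads AUC and AUU, and the UAU anticodon reads AUA, the rarest isoleucine codon in human genes. CRISPRi silences transcription by placing a catalytically dead Cas9 with a repressor domain at a gene's start. In RefSeq (GRCh38.p14) the 3 tRNA-Ile-GAU genes named TRI-GAT lie on chromosome X, at chrX:3838377-3838450, chrX:3876801-3876874 and chrX:3915230-3915303. The libraries were made from 500 ng RNA with a kit that sequences the 3' ends of polyadenylated RNA, so neither tRNA was measured and the targeted genes cannot be checked here.

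The 6 libraries held 6679340 to 8973050 counts each and 15348 to 15586 detected genes. The labelled line was checked on its markers: summed over 12 MDA-MB-231 markers the level was 7227 to 8351 CPM (counts scaled to library size) in UAU and 7270.2 to 7726 in GAUi, VIM lay between 2953 and 3934 CPM, and CDH1, the cadherin this line is known to lack, was at 0 in all 6. Of the markers of other cell types, DCN, FAP, COL3A1, CD3E, TYROBP, CDH5 and CLDN5 were at 0 in all 6, while others were not. Summed over 8 genes each, the fibroblast markers measured 2.32 to 3.69 CPM in UAU and 3.36 to 5.88 in GAUi, with COL1A1 at up to 4.86, and the endothelial markers 145 to 176 and 124 to 181 CPM, most of it ESAM (121 to 178 CPM). The leukocyte sum was 110.4 to 123 CPM in UAU and 60.1 to 96.5 in GAUi, most of it LAPTM5 (49.6 to 113 CPM) and the rest largely CD68 (5.60 to 9.59 CPM), and its part in the results was not tested. The GAUi libraries stood apart in one respect. Pairs of GAUi libraries differed by a chi-square of 8.01 to 22.3 per degree of freedom, against 1.76 to 3.56 for pairs within the other total RNA groups. The fit assumes one spread for both lines.

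Of 12026 genes tested with edgeR's quasi-likelihood test, 521 (4.33%) were called at an adjusted p under 0.05. Of these, 277 were higher in UAU (2.3% of those tested) and 244 were higher in GAUi (2.03%). A difference of at least 2-fold was seen for 53 of the genes higher in UAU and 27 of those higher in GAUi. In all 521 the 3 UAU libraries lay entirely above or entirely below the 3 GAUi libraries, which was also so for 28% of all genes tested. The number of calls depends on single libraries: it was 33, 47 and 38 without UAU replicate A, B or C, and 1720, 587 and 180 without GAUi replicate A, B or C. All 521 genes kept their direction in these 6 fits, but groups that do not overlap can hardly change direction when a single library is dropped. Without GAUi A 517 were still called, in a fit that called 14.1% of all genes tested. Of 97 named genes that were called, 17 remained called in all 6 fits, and these lead the account below.

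S100A4, a small calcium-binding protein known for its part in cell motility, showed the largest difference of the called genes that average 3 or more in log2 CPM. Its level was 994, 841 and 929 CPM in the UAU libraries and 183, 206 and 256 CPM in the GAUi libraries, with no overlap. The difference was 2.10 on the log2 scale (SE 0.14, adjusted p = 1.33e-05). The control line (900.1, 895 and 848 CPM) lay with UAU, and isoswitch (283, 291 and 309 CPM) lay just above GAUi.

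The other genes higher in UAU in all 6 leave-out fits have roles in signalling, adhesion, transport and metabolism. INHBB encodes a subunit of activins, secreted ligands of the TGF-beta family, and measured 11.9 ± 1.19 CPM (SD, n = 3) in UAU against 3.87 ± 0.417 in GAUi. KMO, an enzyme of tryptophan breakdown, measured 24.1, 17.9 and 21.6 CPM in UAU and 9.39, 9.29 and 8.54 CPM in GAUi. SLCO4A1, an organic anion transporter, measured 198, 163 and 175 CPM against 88.1, 74.7 and 90.9 CPM, a difference of 1.08 (SE 0.12, adjusted p = 0.00111). Its antisense neighbour SLCO4A1-AS1 differed by 1.62 (SE 0.23, adjusted p = 0.00428). The 2 genes overlap and it is not given in the sources used here whether reads were counted by strand, so their reads may not be separable. CLDN4, a claudin of tight junctions, measured 63.5, 59.3 and 64.1 CPM in UAU and 27, 20.2 and 20.1 in GAUi, a difference of 1.46 (SE 0.14, adjusted p = 0.000449). PON2, an intracellular paraoxonase, measured 21.7, 19.4 and 21.8 CPM against 7.58, 7.96 and 7.63 CPM, a difference of 1.44 (SE 0.15, adjusted p = 0.000764). For each of these genes the control line lay nearer to UAU and isoswitch nearer to GAUi. CLDN4 and PON2 are on chromosome 7, to which the account returns.

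Other genes were higher in UAU than in every other line. SNX10, a sorting nexin of endosomes, measured 24.7, 20.5 and 29.1 CPM in UAU, 8.6, 10.3 and 12.2 in GAUi and 17.6, 16.9 and 11.9 in control, so that control and isoswitch lay between the 2 lines. NDRG1, a hypoxia-inducible gene, was similarly placed, at 212 ± 19.6 CPM in UAU, 112 ± 10.8 in GAUi, 152 ± 7.04 in control and 179.6 ± 5.17 in isoswitch (SD, n = 3 each).

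The genes most strongly higher in GAUi include cell-surface proteins. PTK7, a receptor-like pseudokinase of Wnt and planar polarity signalling, measured 6.91, 6.56 and 5.23 CPM in UAU and 29.6, 18.6 and 18.3 CPM in GAUi. The UAU minus GAUi difference was -1.83 (SE 0.22, adjusted p = 0.00143). Control (4.50, 6.21 and 6.72) and isoswitch (19.6, 22 and 20.8) again lay with the line that shared their CRISPRi target. CDH11, a cadherin of mesenchymal cells, was low in all lines but showed the same order, with 1.41, 1.91 and 2.18 CPM in UAU, 8.6, 15 and 11 in GAUi, 2.67, 2.22 and 3.43 in control and 13.3, 14.8 and 16.5 in isoswitch. Its difference was -2.64 (SE 0.29, adjusted p = 0.000765). KRTAP2-3, a hair keratin-associated protein, measured 5.64 ± 0.518 CPM in UAU and 13.1 ± 1.99 in GAUi. It belongs to a family of near-identical copies, so its reads are uncertain. It was above control in both lines, by 0.89 in UAU (adjusted p = 0.0175) and 2.08 in GAUi (adjusted p = 0.000629), so the lines differed in size, not in direction.

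ADM, which encodes the vasodilator peptide adrenomedullin, moved away from control in opposite directions. It measured 28.2, 32.8 and 30.1 CPM in UAU, 93.3, 82.6 and 84.5 in GAUi, 53.3, 49.0 and 51.4 in control and 61.9, 65.5 and 64.4 in isoswitch, with no overlap between any 2 lines. It was 0.76 below control in UAU (-0.76, adjusted p = 5.84e-06) and 0.74 above it in GAUi (adjusted p = 0.00445). NEXN, an actin-binding protein, followed the same order: 77.2, 80.7 and 76.8 CPM in UAU, 139, 164 and 144 in GAUi and 99.2, 94.7 and 97.2 in control. PPAP2B, a lipid phosphatase, was 0.50 below control in UAU (-0.50, adjusted p = 0.00264) and 0.44 above it in GAUi (adjusted p = 0.0543). ANKRD1, a nuclear ankyrin-repeat protein and target of YAP, was low in UAU alone: 609.7, 652 and 529 CPM in UAU, 946, 1379.9 and 1224 in GAUi, 1077, 999.5 and 1027 in control and 1073, 1017 and 962 in isoswitch. Its difference between the 2 lines was -0.99 (SE 0.14, adjusted p = 0.00428).

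**Figure D1:**
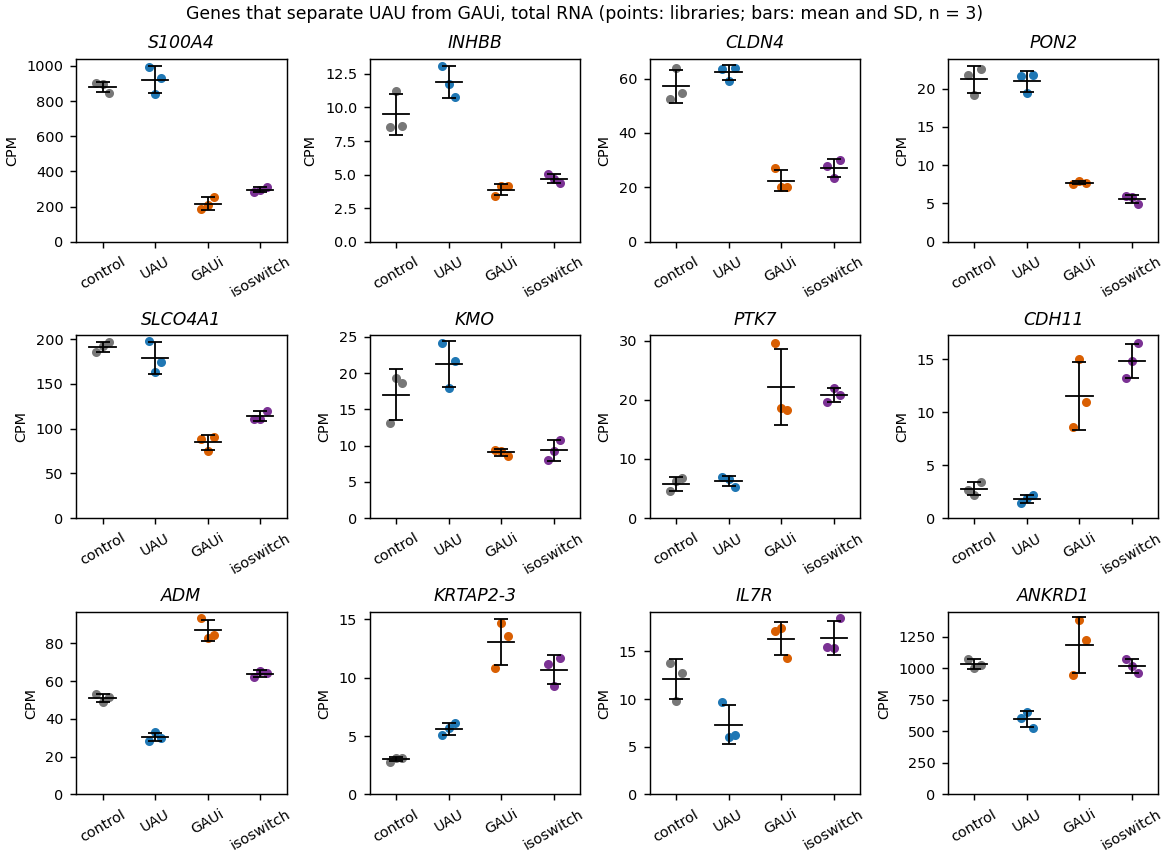
CPM of 12 genes (vertical axes, each from 0) in the 3 total RNA libraries of control, UAU, GAUi and isoswitch; points are libraries and bars the mean and SD. For S100A4, PON2, PTK7 and CDH11 control sits with UAU and isoswitch with GAUi, for ADM the 4 lines stand apart from each other, and for ANKRD1 only UAU is low.

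The largest block of genes that separated the lines was defined by position. Chromosome 7 carried 564 of the tested genes, and 112 of them (19.9%) were called higher in UAU while 0 were called lower, against 2.3% and 2.03% over all genes. Chromosome 7 holds 4.69% of the tested genes and 40.4% of the genes called higher in UAU. The median log2 difference of its genes was 0.38, a 1.30-fold difference, with quartiles of 0.21 and 0.58, and 91.1% of them were above 0. The medians of the other 22 chromosomes lay between -0.06 and 0.02. The shift was even along the chromosome: in consecutive windows of 20 Mb the median ran from 0.34 to 0.43, over 49 to 98 genes each. Off chromosome 7, 160 genes (1.41%) were called higher in UAU and 243 (2.15%) higher in GAUi. With the chromosome 7 genes left out of the fit, which was chosen after the pattern was seen, 126 and 159 genes were called.

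**Figure D2:**
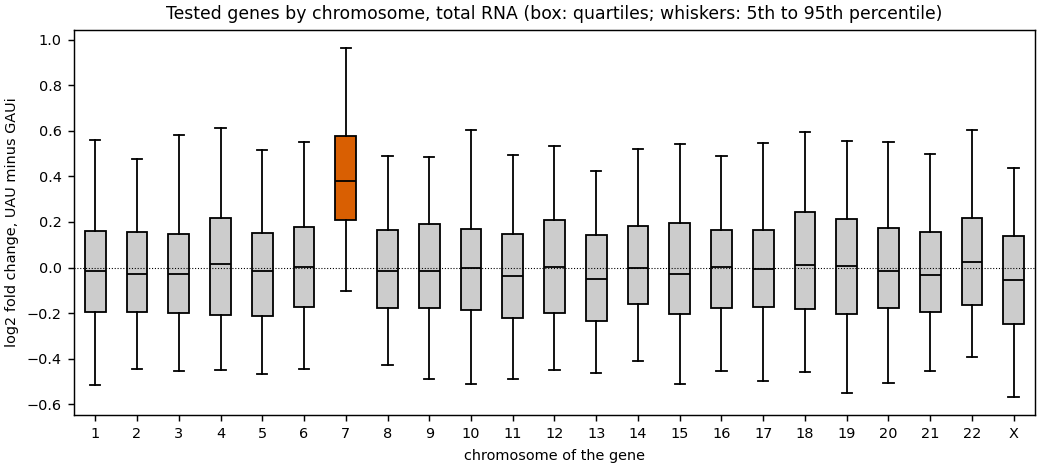
Log2 fold change of UAU minus GAUi in total RNA for tested genes, by chromosome; boxes show the median and quartiles and whiskers the 5th to 95th percentile. The chromosome 7 box, in orange, runs from 0.21 to 0.58, while every other box includes 0.

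Control and isoswitch, whose libraries enter neither group, fell on opposite sides of this shift. In each library the median log2 level of chromosome 7 genes, relative to the control mean and to all other genes, was computed. The control libraries are thus centred on themselves by construction, and only the distance of the other lines from them is informative. In total RNA it was -0.01 ± 0.01 in UAU and -0.40 ± 0.02 in GAUi (SD, n = 3; exact permutation test, two-sided, p = 0.1, the smallest that 3 against 3 allows). Over all fractions it lay between -0.03 and 0.04 in the 18 control and UAU libraries and between -0.45 and -0.36 in the 18 GAUi and isoswitch libraries, with no overlap. Set by CRISPRi target, 6 eGFP libraries against 6 Ile GAU libraries, the exact two-sided permutation p was 0.00216 in each fraction. This pattern was seen before it was tested, and libraries of one line are not independent lines. The eGFP group also includes the control libraries that set the reference level. The median of chromosome 7 genes against control was -0.41 in GAUi (0.753-fold), -0.40 in isoswitch (0.760-fold) and -0.01 in UAU. Only RNA was measured, so the number of chromosome 7 copies in each line is not known from these data, and CRISPRi target and line cannot be told apart.

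**Figure D3:**
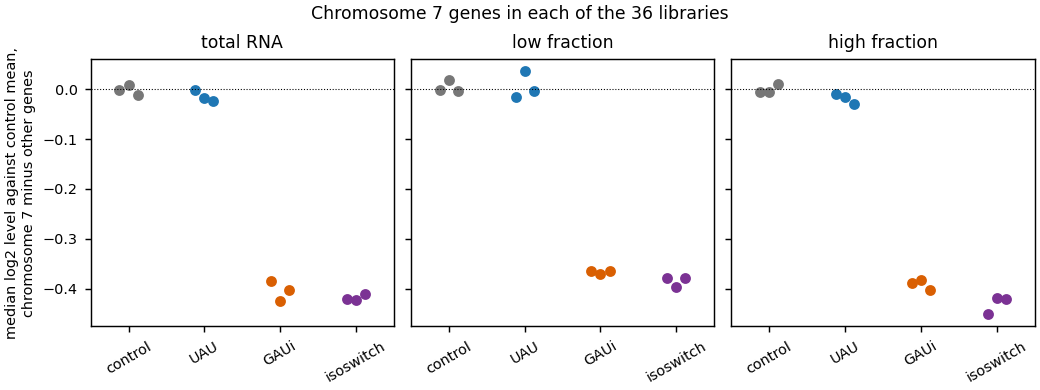
Median log2 level of chromosome 7 genes relative to the control mean, minus the same median over other genes, for each of the 36 libraries in total RNA, low and high fraction. Control and UAU points lie between -0.03 and 0.04, GAUi and isoswitch points between -0.45 and -0.36.

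Single chromosome 7 genes show the shift to different degrees. CAV1, RAC1, CBX3 and ACTB were named after their values were seen. CAV1, the coat protein of caveolae, measured 1369.7, 1433 and 1469 CPM in UAU and 1044, 1028 and 1075 in GAUi. RAC1, a GTPase of the actin cytoskeleton, measured 1286, 1265 and 1298 CPM against 1005, 884 and 932 CPM. CBX3, a heterochromatin protein, measured 2128, 1830.3 and 1867 CPM against 1279.9, 839.7 and 1361 CPM. The receptor tyrosine kinase MET measured 118, 119 and 123 CPM against 83.0, 85.7 and 87.1 CPM, a difference of 0.49 (SE 0.10, adjusted p = 0.0266). Not every chromosome 7 gene followed. ACTB, cytoplasmic actin, differed by 0.04 (adjusted p = 0.874), and INSIG1, the sterol-sensing retention protein of the endoplasmic reticulum, by -0.31 (adjusted p = 0.121).

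The reference lines were also placed against the genes called on other chromosomes. Of the 165 genes higher in UAU off chromosome 7 or without a position, control had a mean nearer to UAU for 76.4% and isoswitch a mean nearer to GAUi for 63.6%. Of the 244 genes higher in GAUi, the shares were 69.7% and 56.1%. For the 112 chromosome 7 genes they were 93.8% and 96.4%. The same shares over all tested genes, called or not, were 56.9% and 47.6% for genes with a difference above 0 off chromosome 7, 60.8% and 51.1% for those below 0, and 86% and 89.7% for genes above 0 on chromosome 7. The genes were chosen for a difference between UAU and GAUi, and the GAUi libraries vary most, so the shares are a description with no test. Against control, 916 of 12021 genes were called in UAU (7.62%), 329 of 11987 in GAUi (2.74%) and 1898 of 12028 in isoswitch (15.8%). The first 2 of these share their control libraries with each other and a line each with the main comparison, so only values side by side are given. The GAUi counts, 92 higher and 237 lower, ran from 9 to 498 higher and 23 to 781 lower as single libraries were left out, highest without GAUi A and lowest without control A.

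Genes of the translation machinery were, where called, higher in GAUi. Among 47 tested proteins of the large ribosomal subunit 0 were higher in UAU and 7 lower (14.9% called, against 4.33% of all genes), and 39 had a negative difference, with a median of -0.25 against 0.00 over all genes. Among 32 proteins of the small subunit 0 were higher and 4 lower (12.5%), with a median of -0.15. RPS12 measured 3908, 3769.5 and 3407 CPM in UAU and 5459, 4942 and 4911 in GAUi, with no overlap, a difference of -0.47 (SE 0.09, adjusted p = 0.0216). RPS23 measured 486, 524 and 479 CPM against 697, 919 and 691 CPM. Control and isoswitch lay between the 2 lines for both genes. Without GAUi A, 1 large-subunit gene was called higher and 19 lower of 47, in a fit that called 839 of all 12200 genes higher and 881 lower. In the low fraction the medians of the same lists were 0.00 and -0.01 and in the high fraction -0.08 and -0.02. Of 42 translation factors 1 was called, EIF5B, which joins the ribosomal subunits (-0.45, adjusted p = 0.0495). Of 20 cytosolic aminoacyl-tRNA synthetases, which load tRNAs, 1 was called, the threonine enzyme TARS, at 625, 632 and 617 CPM in UAU and 768, 821 and 809.6 in GAUi. The isoleucine enzyme IARS measured 65.9 ± 7.78 CPM in UAU and 78.7 ± 13.5 in GAUi (adjusted p = 0.312).

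Genes that make or modify tRNA were mostly not separated. Of 61 genes for tRNA modification and processing 2 were higher in UAU and 1 lower, near the 4.33% of all genes. Those higher were DUS4L on chromosome 7, a dihydrouridine synthase, at 19, 17.6 and 16.4 CPM against 7.46, 7.96 and 9.30, and THG1L, which adds the extra guanosine of histidine tRNA (0.81, adjusted p = 0.0247). The one lower was TRMT6, a subunit of a tRNA methyltransferase (-0.48, adjusted p = 0.0388). Of 24 RNA polymerase III genes, whose enzyme transcribes tRNA, 1 was called: POLR1C, at 31.7, 35.1 and 33.8 CPM in UAU and 55.8, 49.3 and 48.7 in GAUi. The protein-coding or non-coding genes next to the TRI-GAT genes were not called: PRKX measured 12.7 ± 0.551 CPM in UAU and 15.7 ± 1.68 in GAUi (adjusted p = 0.278), and LOC389906, which spans TRI-GAT1-1 by position, 6.55 ± 1.18 and 8.57 ± 0.394 (adjusted p = 0.275).

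Of 21 cholesterol synthesis genes 0 were called between the lines, and 1 was higher and 3 lower without GAUi A, where 14.1% of all genes were called. Their median was -0.08 between the lines. Against control the median was -0.24 in UAU, with 0 called higher and 9 lower (7.62% of all genes were called), and -0.23 in GAUi, with 0 higher and 2 lower (2.74% of all genes). INSIG1, which holds the sterol-sensing complex in the endoplasmic reticulum, measured 138, 131 and 129 CPM in UAU, 150.1, 176 and 167 in GAUi, 310.0, 300.0 and 314 in control and 144, 138 and 138 in isoswitch. It was called against control in both lines, by -1.22 in UAU (adjusted p = 1.26e-13) and -0.92 in GAUi (adjusted p = 0.00104). Of 15 genes of sterol regulation and uptake 2 were called (13.3%, against 4.33% of all genes), both lower in UAU. Of 12 fatty acid synthesis genes 0 were called between the lines. Against control, 0 were called higher and 6 lower in UAU (7.62% of all genes), and 0 higher and 1 lower in GAUi (2.74% of all genes).

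Stress-response lists held 0 to 3 called genes each. Of 25 targets of the amino acid stress factor ATF4, 1 was higher in UAU and 2 lower, 12% against 4.33% of all genes. DDIT4, an inhibitor of mTORC1, measured 71.9, 63.5 and 59.7 CPM in UAU, 39.9, 32.5 and 36 in GAUi and 118, 111 and 123 in control, so it was below control in both lines and further below in GAUi (difference 0.85, SE 0.13, adjusted p = 0.00575). The amino acid transporter SLC1A5 (-0.55, adjusted p = 0.0324) and the serine synthesis enzyme PSAT1 (-0.44, adjusted p = 0.0496) were higher in GAUi. Of 25 genes of endoplasmic reticulum folding and the unfolded protein response 3 were higher in UAU and 0 lower (also 12%), and 2 of the 3, PDIA4 and SEC61G, are on chromosome 7. The other is XBP1, a transcription factor of that response, at 67.7, 64.3 and 71.0 CPM in UAU, 51.7, 39.8 and 48.5 in GAUi and 45.0, 44.7 and 47.0 in control. Of 18 cytosolic heat shock genes 1 was called, the chaperone HSP90AA1 (-0.44, adjusted p = 0.0315). Of 30 mTORC1 regulators and 28 genes of the oxidative stress response 0 were called, and of 17 p53 targets 0.

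Hypoxia and glycolysis genes were called in both directions, and the respiratory chain list leaned toward GAUi in total RNA. The called shares were 13% for the hypoxia, 9.09% for the glycolysis and 6.76% for the respiratory chain list, against 4.33% of all genes. Of 23 hypoxia genes 2 were higher in UAU (NDRG1 and VEGFA) and 1 lower (ADM), so members of the same list stood on opposite sides. VEGFA, the vascular growth factor, measured 73.1, 73.9 and 83.2 CPM in UAU and 47.8, 54.8 and 50.2 in GAUi. Of 22 glycolysis genes 1 was higher, the regulatory kinase PFKFB4 (0.88, adjusted p = 0.0368), and 1 lower, LDHA, which makes lactate. LDHA measured 315, 363 and 344 CPM in UAU and 508, 629 and 482 in GAUi, a difference of -0.67 (SE 0.12, adjusted p = 0.014). Of 74 respiratory chain genes 1 was higher, NDUFA5 on chromosome 7, and 4 were lower, among them NDUFS8 (-0.56, adjusted p = 0.0247) and ATP5I (-0.59, adjusted p = 0.0258). The list's median was -0.14, and 52 of 74 were negative. In the high polysome fraction the list's median was 0.12, with 15 called higher in UAU and 1 lower of 74, where 15.6% of all genes were called.

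Adhesion and cytoskeletal genes separated in both directions. The called shares were 25% for the epithelial, 14.3% for the mesenchymal and 16.7% for the S100 and annexin list, against 4.33% of all genes. For antigen presentation the share was 5.88%, and for IGF binding and signalling 20%. Of 20 epithelial genes 2 were higher in UAU, CLDN4 and CLDN3, neighbours on chromosome 7, and 3 were lower: the hair keratins KRT81 and KRT86 and CLDN1. KRT81 measured 269.6, 277 and 299 CPM in UAU and 536, 396 and 434 in GAUi, with control (268, 256 and 284) beside UAU and isoswitch (495, 499 and 486) beside GAUi. KRT81 and KRT86 are close copies, so their reads may not be separable. Of 28 mesenchymal genes 2 were higher, S100A4 among them, and 2 lower (CDH11 and THBS1). THBS1, the matrix protein thrombospondin 1, measured 113, 128 and 131 CPM against 169, 184 and 179 CPM. Of 18 S100 and annexin genes S100A4 and S100A2 were higher and ANXA2 lower. S100A2 differed by 0.46 (adjusted p = 0.0364), against 2.10 for S100A4. Of 17 antigen presentation genes 1 was called, the proteasome subunit PSMB10 (-0.60, adjusted p = 0.0332). Of 10 genes of IGF binding and signalling IGFBP1, on chromosome 7, was higher in UAU and the adaptor IRS2 lower.

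Called signalling genes were few in each list in total RNA, and the YAP and TEAD list also leaned toward GAUi. The called shares were 19% for YAP and TEAD targets, 11.1% for Wnt and 8.82% for interferon genes, against 4.33% of all genes. For NF-kappa-B and inflammatory genes the share was 16.7%, and for immediate early and MAPK feedback genes 6.9%. Of 21 targets of YAP and TEAD, factors that respond to cell shape and contact, 1 was higher in UAU and 3 lower, with a list median of -0.26 and 16 of 21 negative. The median was -0.34 in the low and -0.28 in the high fraction. In the low fraction 1 of 21 was called higher and 8 lower, where 7.46% of all genes were called. In the high fraction 1 of 20 was called higher and 6 lower, where 15.6% of all genes were called. Those lower were ANKRD1, TGFB2 and F3, tissue factor, and the one higher was NT5E, the surface nucleotidase CD73 (0.50, adjusted p = 0.0294). TGFB2, a secreted TGF-beta, was low in UAU alone, at 58.8, 49.2 and 51.4 CPM against 85.7, 78.4 and 86.0 in GAUi and 94.0, 84.8 and 82.0 in control. Of 27 Wnt genes PORCN, which acylates Wnt ligands, was higher (0.89, adjusted p = 0.0249), and PTK7 and the inhibitor-like gene APCDD1L were lower. Of 34 interferon-response genes 1 was higher, the tethering factor BST2, and 2 lower, IFITM1 and IFI6. BST2 measured 35, 30.5 and 30.1 CPM against 19.8, 14.5 and 21 CPM. Of 18 NF-kappa-B and inflammatory genes 3 were lower in UAU: the collagenase MMP1, PTGES and the cytokine IL11, at 104, 98.1 and 91.1 CPM in UAU and 157, 121 and 136 in GAUi. Of 29 immediate early and MAPK feedback genes PHLDA1 was higher and the phosphatase DUSP5 lower.

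Few proliferation genes were called in total RNA. The called shares were 2.78% for the mitosis and 5.56% for the DNA replication list, against 4.33% of all genes. Of 36 mitosis genes 1 was called, the kinase PLK1, at 125, 124 and 121 CPM in UAU and 167, 163 and 169.8 in GAUi. Of 36 DNA replication genes 2 were called, MCM10 and the flap endonuclease FEN1, both lower in UAU. Without GAUi A, 0 mitosis genes were higher and 8 lower, and 1 DNA replication gene higher and 4 lower (14.1% of all genes were called). Against control, 1 mitosis gene was higher and 9 lower in UAU, and 0 DNA replication genes higher and 4 lower (7.62% of all genes). In GAUi 0 genes of either list were called against control (2.74% of all genes). In the high fraction 0 mitosis genes were called higher and 14 lower (median -0.25), and 0 DNA replication genes higher and 9 lower (median -0.20), against 15.6% of all genes called there. Of 31 proteasome genes 0 were called in total RNA, and 0 higher and 9 lower in the high fraction. Metallothioneins, which bind zinc and copper, split, with 40% of the 10 tested metallothionein and zinc genes called. MT1F measured 6.63, 7.37 and 7.99 CPM in UAU and 1.70, 2.12 and 2.14 in GAUi, a difference of 1.89 (SE 0.24, adjusted p = 0.0024), and MT1A was also higher. MT2A measured 3961, 4299 and 4297 CPM against 6515, 5027 and 5487 CPM, and the zinc exporter SLC30A1 was also lower in UAU. Metallothionein genes are close copies, so reads may be shared among them.

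The long non-coding RNAs listed were mostly higher in GAUi where called in total RNA. Of 28 long non-coding RNAs 1 was higher in UAU and 5 lower (21.4%, against 4.33% of all genes), with a median of -0.20. In the high fraction 6 of 26 were called higher and 4 lower, with a median of -0.04, where 15.6% of all genes were called. DANCR measured 52.2, 54.2 and 56.1 CPM in UAU and 97.3, 87.8 and 81.6 in GAUi. The snoRNA hosts SNHG12 (-0.64, adjusted p = 0.0223) and SNHG7 (-0.51, adjusted p = 0.0261) were also lower in UAU. The one higher was OIP5-AS1, at 81.4, 75.4 and 83.7 CPM against 39.9, 42.2 and 55.7. TERC, the RNA of telomerase, was higher in UAU (1.11, SE 0.26, adjusted p = 0.0327), but one GAUi library, at 59.0 CPM, stood far above the other two at 24.9 and 27.3. Of 15 histone genes 1 was called, HIST1H1C, at 1059, 945 and 995 CPM in UAU and 343, 548 and 770.3 in GAUi, and the list's median of 0.31 was 0.28 without GAUi A. Of 7 HOX genes 0 were called.

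**Figure D4:**
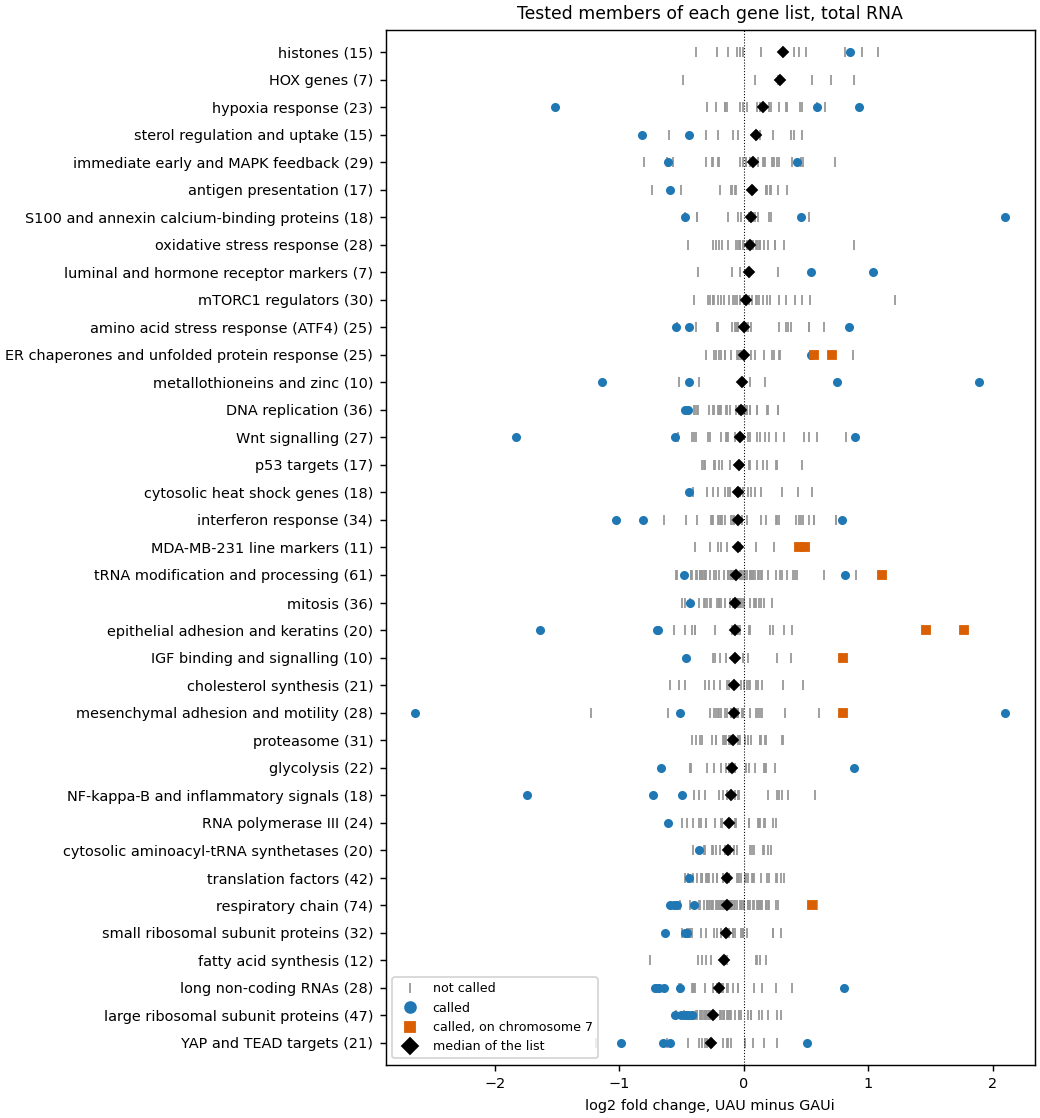
Log2 fold change of UAU minus GAUi in total RNA for the tested members of each gene list with at least 7 tested (number in brackets); ticks are members that were not called, circles called members, squares called members on chromosome 7 and diamonds list medians. List medians stay between -0.26 and 0.31, and the called members on chromosome 7 lie to the right of 0.

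GPRC5C, an orphan receptor, was the remaining gene examined for its change against control. It measured 13.3, 12.7 and 12.5 CPM in UAU, 8.48, 7.16 and 7.32 in GAUi, 28.4, 24.1 and 28.1 in control and 6.57, 7.59 and 9.81 in isoswitch. Both single changes were below control, by -1.07 in UAU (adjusted p = 2.53e-06) and -1.82 in GAUi (adjusted p = 0.000147), and GAUi was the lower of the 2 (difference 0.74, SE 0.17, adjusted p = 0.031).

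Promoter windows from RefSeq (GRCh38.p14), 250 bases before to 50 after a start, were searched on both strands for 3 motifs: TCACNCCAC, a sterol element, TGATGCAA, an element of ATF4 and C/EBP, and CACGTG, the E-box. Windows were found for 9085 of the 12026 tested genes, 13338 windows in all, and a gene with several starts has several windows, which can overlap. The E-box was in 15.5% of the 252 windows of genes higher in GAUi, in 9.73% of the 329 windows of genes higher in UAU, and in 9.3% of the windows of all genes tested (7.26% of the whole table). Among genes higher in UAU the share was 6.72% of 134 windows on chromosome 7 and 11.8% of the other 195. The sterol element was in 1.19%, 0.608% and 1.09% (1.13% of the whole table) and the ATF4 element in 0.794%, 0.304% and 0.457% (0.866%), which rest on 1 to 3 windows in the called sets. No test was made of these shares. Windows of 4 called genes with an E-box are shown as examples, LDHA, PLK1 and TGFB2 from the genes higher in GAUi and MET from chromosome 7, each on the plus strand with the motif in capitals. They are chr11:18394313-18394612 for LDHA, chr16:23678639-23678938 for PLK1, chr1:218345086-218345385 for TGFB2 and chr7:116671946-116672245 for MET.
LDHA: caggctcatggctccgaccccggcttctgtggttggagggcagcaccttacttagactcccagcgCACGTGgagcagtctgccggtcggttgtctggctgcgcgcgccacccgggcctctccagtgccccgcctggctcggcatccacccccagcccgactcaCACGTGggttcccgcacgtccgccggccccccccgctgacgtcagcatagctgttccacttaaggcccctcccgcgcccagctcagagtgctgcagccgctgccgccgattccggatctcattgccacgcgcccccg
PLK1: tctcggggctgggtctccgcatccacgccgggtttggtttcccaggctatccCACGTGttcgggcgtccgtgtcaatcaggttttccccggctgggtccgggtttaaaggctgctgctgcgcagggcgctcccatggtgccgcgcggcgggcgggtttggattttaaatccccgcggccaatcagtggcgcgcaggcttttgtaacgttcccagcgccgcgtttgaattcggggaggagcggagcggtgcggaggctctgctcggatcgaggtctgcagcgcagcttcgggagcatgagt
TGFB2: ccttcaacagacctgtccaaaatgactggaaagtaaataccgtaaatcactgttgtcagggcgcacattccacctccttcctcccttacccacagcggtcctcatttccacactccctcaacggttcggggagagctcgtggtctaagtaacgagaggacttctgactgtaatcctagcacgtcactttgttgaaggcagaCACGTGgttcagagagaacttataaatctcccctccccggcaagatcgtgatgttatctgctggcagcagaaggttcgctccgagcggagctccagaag
MET: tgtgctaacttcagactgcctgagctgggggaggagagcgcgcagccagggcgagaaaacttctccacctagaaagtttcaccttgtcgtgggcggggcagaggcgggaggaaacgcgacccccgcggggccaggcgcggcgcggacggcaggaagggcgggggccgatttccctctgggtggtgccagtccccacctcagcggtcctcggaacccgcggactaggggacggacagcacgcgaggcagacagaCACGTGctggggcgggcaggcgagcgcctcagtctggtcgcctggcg
The LDHA window holds 2 E-boxes and the others 1 each. A match is a description of the sequence, and binding was not measured.

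The same lines were compared in the polysome fractions, which are separate libraries although fractions with the same letter may come from one lysate. In the low fraction 905 of 12128 genes were called (7.46%) and in the high fraction 1820 of 11679 (15.6%). Most genes called in total RNA had the same sign there, and fewer were called again. Of the chromosome 7 genes called higher in total RNA 99.1% of those tested had the same sign in the low fraction and 100% in the high fraction. The shares were 94.4% and 95.7% for the other genes higher in UAU, and 91.2% and 88.4% for those higher in GAUi. Over all tested genes off chromosome 7 the shares were 64.8% and 64% for differences above 0 and 66.6% and 67% for those below 0. Of the 112 chromosome 7 genes 86 were called higher in the low and 89 in the high fraction, and of the other 165 genes higher in UAU 78 and 80. Of the 244 genes higher in GAUi 69 were called lower in UAU in the low fraction, and in the high fraction 119 were called lower and 5 higher. The chromosome 7 median was 0.37 in both fractions. S100A4 differed by 1.41 in the low (adjusted p = 1.06e-08) and 2.00 in the high fraction (adjusted p = 1.28e-10), PTK7 by -1.44 and -1.51 (adjusted p = 0.0039 and 0.000368) and ADM by -1.09 in each. Among the 244 genes higher in GAUi, the median was -0.57 in total RNA, -0.26 in the low and -0.36 in the high fraction.

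**Figure D5:**
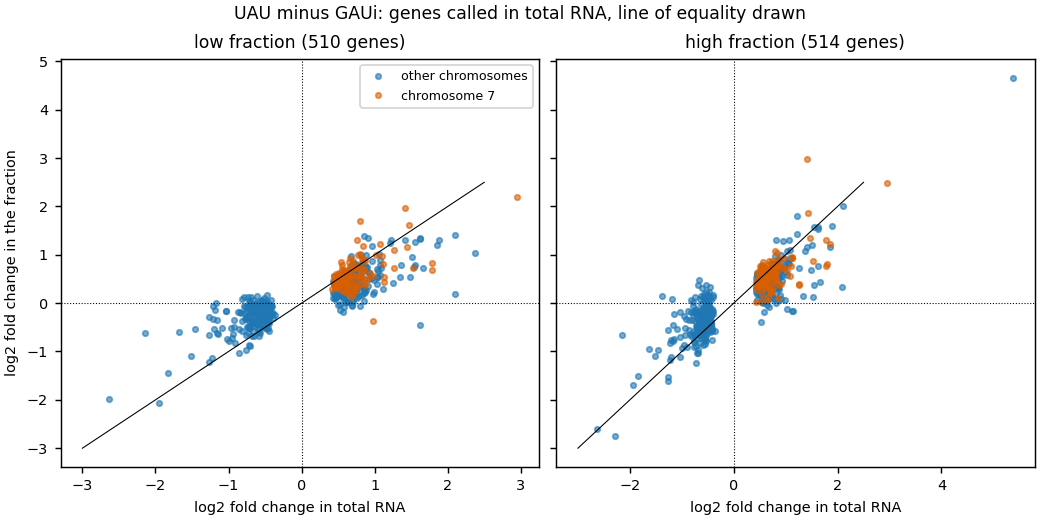
Log2 fold change of UAU minus GAUi in the low and high fraction (vertical) against total RNA (horizontal), for genes called in total RNA and tested in the fraction; the line marks equality. Chromosome 7 genes, in orange, lie to the right of 0 and nearly all above it.

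The difference between the high fraction and total RNA was tested directly, as an interaction over 12 libraries. The fit took these as independent, although libraries of a line with the same letter may come from the same lysate. Of 12252 genes 5 were called (0.0408%), with 1245 at an unadjusted p under 0.05. In all 5 the gene was lower in UAU in total RNA and higher in UAU in the high fraction: the respiratory chain assembly factor PET100, the respiratory subunit NDUFA1, the ribosomal protein RPS12, the growth factor GDF9 and the mitotic transcription factor FOXM1. NDUFA1 measured 262 ± 18.3 CPM in UAU and 380.1 ± 52.3 in GAUi in total RNA, and 468 ± 24 and 361 ± 8.53 in the high fraction (SD, n = 3 each). RPS12 measured 3695 ± 259 and 5104 ± 308 in total RNA, and 2034 ± 45.4 and 1724 ± 116 in the high fraction. The number called ran from 0 to 52 as single libraries were left out, and it was 52 without the total RNA library GAUi A. With a replicate block 6 genes were called.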

How the data were processed

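Total RNA of 4 MDA-MB-231 lines, 3 libraries each, was analysed, with 2 polysome fractions for reference. Values are deposited whole-number counts per gene symbol, raw, 1 table per library. Per the submitters' processing notes the authors used STAR, featureCounts, DESeq2 and hg38; for versions, strand setting and annotation, the entry is not given in the sources used here.

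Genes passing filterByExpr were scaled by TMM and tested with edgeR 4.0.16 in R 4.3.3 (quasi-likelihood, Benjamini-Hochberg adjusted p under 0.05), on the 6 libraries compared. DESeq2 1.42.0 and limma 3.58.1 were alternatives. Because CPM used TMM over the 12 libraries of a fraction, levels and fold changes can differ slightly. CPM is not per length, so levels are not compared between genes. The fits were tested on simulated data that gave each gene the same spread in both lines. The larger spread of the GAUi libraries was therefore not covered. At 6679340 counts or more per library, genes near 1 CPM rest on few reads.

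Positions came from RefSeq GRCh38.p14 by symbol or unique synonym (11879 of 12026 tested). Named genes are the 12 highest and 12 lowest called genes among those averaging 3 or more in log2 CPM whose groups do not overlap, up to 4 called members per list by p (the smallest p where none was called), 11 set by plan, and interaction genes; MGC72080, HSH2D, EVI2B, MGC12916 and CBR3-AS1 were named by this rule. Members and lists were chosen with earlier results of these data known. Alternatives were other scaling, no filter, other tools, 12 libraries in 1 fit, a replicate block and leaving out each library. Isoleucine codon use was not analysed here, and some named genes are not reported here.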

Additional observations from a re-analysis of the deposited data

Results flagged for a closer look

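The difference between UAU and GAUi itself differed between the high polysome fraction and total RNA for 5 genes, by an interaction test. The interaction, as the high-fraction log2 difference minus that in total RNA, was 1.15 for PET100 (SE 0.19, adjusted p = 0.0228), 1.06 for GDF9 (SE 0.19, adjusted p = 0.0375), 0.91 for NDUFA1 (SE 0.15, adjusted p = 0.0228), 0.79 for FOXM1 (SE 0.14, adjusted p = 0.0375) and 0.70 for RPS12 (SE 0.12, adjusted p = 0.0375). Over 16 settings, PET100 was called in 11 of 16, NDUFA1 in 10, RPS12 in 9, FOXM1 in 8 and GDF9 in 7, with adjusted p values from 2.06e-07 to 0.169. The spread of the total RNA GAUi libraries moves with these calls, and its part in them was not tested. Groups of 3 libraries are too small for an outlier check.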

How the results depend on the processing

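All calls come from 3 libraries a line. For UAU against GAUi in total RNA, the alternatives that moved a count by over 1.5 times gave 613 higher and 550 lower without the filter, 940 and 889 with 12 libraries in 1 fit, 530 and 383 with a replicate block, and 126 and 159 without chromosome 7 genes, an alternative added after seeing the data. Without single libraries the counts ran from 22 to 839 higher and 11 to 881 lower. RLE scaling, DESeq2 and limma with quality weights kept both counts within that factor. The chromosome 7 median was 0.38 to 0.40 with single libraries left out.

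For UAU against control, DESeq2 gave 227 higher, and 12 libraries gave 43 higher and 70 lower; leaving out libraries gave 165 to 516 and 253 to 775. For GAUi against control, no filter gave 321 and 574, DESeq2 146 higher, limma 174 and 357, 12 libraries 541 and 707, and leaving out libraries 9 to 498 and 23 to 781. For isoswitch against control, DESeq2 gave 451 and 661 and 12 libraries 159 and 341; leaving out libraries gave 544 to 713 and 788 to 905. In the low fraction 12 libraries gave 304 and 188, and leaving out libraries 227 to 604 and 117 to 481. In the high fraction leaving out libraries gave 372 to 1348 and 375 to 1562. For the interaction, no filter called 83 genes and leaving out libraries 0 to 52. The cause of these changes was not tested, apart from fewer libraries or genes where those define the setting.

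Of the 111 named genes' values under alternatives, 1002 stayed called or stayed not called, 293 lost the call, 34 gained it and 0 reversed. Without a given UAU library, 75 to 78 of the 97 called genes lost the call. Of list medians, 300 moved by less than the spread between libraries and 42 by more. Whether the letters A, B and C pair the libraries is not settled. Deviations of UAU and GAUi libraries of the same letter correlated at 0.09, 0.09 and -0.01, and those of different letters at -0.15 to 0.07. For UAU against GAUi the replicate block raised the count of calls from 521 to 913, and 520 of the 521 were shared. Genes below about 1 CPM have too few counts for small differences to be detectable.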

Other observations

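Some further genes of low level, named after their values were seen, differed widely between the lines. HTR1F, a serotonin receptor, had 33, 34 and 25 counts in the UAU libraries and 31, 27 and 34 in control, but 0, 1 and 1 in GAUi and 0, 0 and 1 in isoswitch. The acute-phase proteins SAA1 and SAA2, near-identical neighbours on chromosome 11 whose reads may be shared, went the other way. SAA1 measured 3.24, 1.50 and 1.31 CPM in UAU and 8.82, 8.09 and 6.41 in GAUi, with isoswitch at 7.97, 8.11 and 7.54. SAA2 measured 0.753 ± 0.103 CPM in UAU and 3.72 ± 0.48 in GAUi (SD, n = 3 each). In SAA1 the difference was -1.94 (SE 0.31, adjusted p = 0.00763), and it was -2.07 in the low and -1.69 in the high fraction.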
